A study of Homo sapiens with 6 samples.

Results

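The 10 genes described here are the liver X receptors and a set of their efflux and lipid targets: NR1H3, NR1H2, ABCA1, ABCG1, APOE, APOC1, PLTP, MYLIP, LPCAT3 and SREBF1. They were taken by name from the deposited table of counts, and all 10 were found among its 26347 genes. The table covers THP-1 cells, an established human line of monocytic leukaemia, grown in RPMI medium with 10% fetal bovine serum. One group of 3 libraries came from cells given a negative control microRNA mimic, a synthetic duplex with no intended target, and the other group of 3 from cells given a miR-125a-5p mimic, which loads extra miR-125a-5p into the cell. RNA was taken 24 h after transfection in both groups. The series title names macrophages, whereas the sample labels name monocytic cells with no differentiation step.

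Liver X receptors (LXRs) are nuclear receptors that bind oxysterols and, paired with a retinoid X receptor (RXR), switch on genes that rid the cell of cholesterol. In macrophages the best known of these are ABCA1, which loads cholesterol onto lipid-poor apolipoprotein A-I, and ABCG1, which feeds HDL particles. MicroRNAs act on messenger RNAs that pair with their seed, bases 2 to 8 of the microRNA, mostly in the 3′ untranslated region (3′ UTR), and the usual results are a shorter-lived transcript and less protein.

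None of the 10 genes passed the test for a difference after the miR-125a-5p mimic. ABCA1, the most counted of them, stood at 614 ± 41.4 CPM (SD, n = 3) in control and 569 ± 45.3 CPM (SD, n = 3) in miR-125a-5p libraries, and the receptors NR1H3 and NR1H2 had the largest differences, at log2 fold changes of -0.37 and -0.42. With edgeR's quasi-likelihood test and Benjamini-Hochberg adjusted p-values from 14731 tested genes, 0 of 10 were called and the smallest adjusted p was 0.864, for NR1H3. The same test called 4 of all tested genes, 0.0272%, all of them lower and none of them among the 10. At an unadjusted p under 0.05 there were also 0 of the 10, where 5.92% of all tested genes lay. DESeq2, limma voom and edgeR's likelihood ratio test called 0 of the 10 as well. CPM give counts relative to the summed counts of tested genes in a library, with factors from the trimmed mean of M-values (TMM).

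The sequences below are shown because pairing with the seed is what defines a candidate direct target. The mature microRNA is from RefSeq (chr19:51693268-51693291, plus strand, GRCh38.p14), 5′ to 3′, with the seed in capitals. The other lines are stretches of GENCODE 29 transcripts on GRCh38, 5′ to 3′ on the transcript strand, with the bases that pair with the seed, and an A opposite base 1 where there is one, in capitals.
hsa-miR-125a-5p: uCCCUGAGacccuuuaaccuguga
ABCG1, 3′ UTR: agaatgatTCAGGGtaaatcac
ABCG1, coding: cattgaatTCAGGGAcctttcct
PLTP, coding: ttcatcacCTCAGGGAtgcgcttc
LPCAT3, coding: agaactctCTCAGGGtctctcgt
PCTP, 3′ UTR: ttgatgatCTCAGGGAaaaatttt

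No match of 7 or 8 bases to the seed was found in the longest annotated 3′ UTR of any of the 10 genes, where 24.3% of the 12793 tested genes with an annotated 3′ UTR held one. ABCG1 carried the 6-base core TCAGGG at chr21:42296980-42296985 (plus strand, exon 16 of 16), 588 bases after the stop codon, in 6 of 6 annotated 3′ UTRs. A 6-base match was the best one in 13% of the searched genes. The 3′ UTRs searched were mostly short, with a median of 464.5 bases against 1366 bases over all searched genes, and ABCA1 had by far the longest at 3313 bases.

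In coding sequence, searched after the results for the 3′ UTRs had been seen, PLTP held the full 8-base match CTCAGGGA in exon 5 of 15 (chr20:45907864-45907871, minus strand), as did 5.79% of searched genes, and 22.7% held a match of 7 or 8 bases there. LPCAT3 held a 7-base match to the seed in exon 10 of 13 (chr12:6977695-6977701, minus strand). ABCG1 held a 7-base match ending in the A in exon 3 of 16 (chr21:42225864-42225870, plus strand), and ABCA1 held only 6-base cores. The remaining 6 genes had no match of 6 or more bases in their longest 3′ UTR or in the coding sequence of that transcript. Coding sequence of their other transcripts was not searched. A match describes letters and does not show that the microRNA binds there. PCTP belongs to a related list described further on.

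To compare genes with each other, levels were divided by the kilobases of annotated exons. In control libraries APOC1, a small exchangeable apolipoprotein, was highest at 75.5 ± 8.70 CPM per kilobase (SD, n = 3), followed by ABCA1 at 54.1 ± 3.65 and PLTP, the plasma phospholipid transfer protein, at 27.1 ± 3.39. MYLIP, the ubiquitin ligase also called IDOL that marks the LDL receptor for degradation, followed at 16.6 ± 2.23 CPM per kilobase, then APOE at 8.78 ± 0.162 and LPCAT3 at 6.71 ± 1.03. The lowest were NR1H3 (3.25 ± 0.266 CPM per kilobase), SREBF1 (2.20 ± 0.299), NR1H2 (1.74 ± 0.643) and ABCG1 (0.495 ± 0.0845). SREBF1 and NR1H2 overlapped in their control libraries, and no other neighbours in this order did. The order was the same when the longest transcript was used as the length, but 7 of the 10 levels were then over 1.5 times as high, among them APOC1 at 135, APOE at 15.9 and ABCG1 at 0.871 CPM per kilobase. The 2 efflux transporters thus lay at the second and the last place in these cells, as the plot of levels per kilobase shows.

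**Figure D1:**
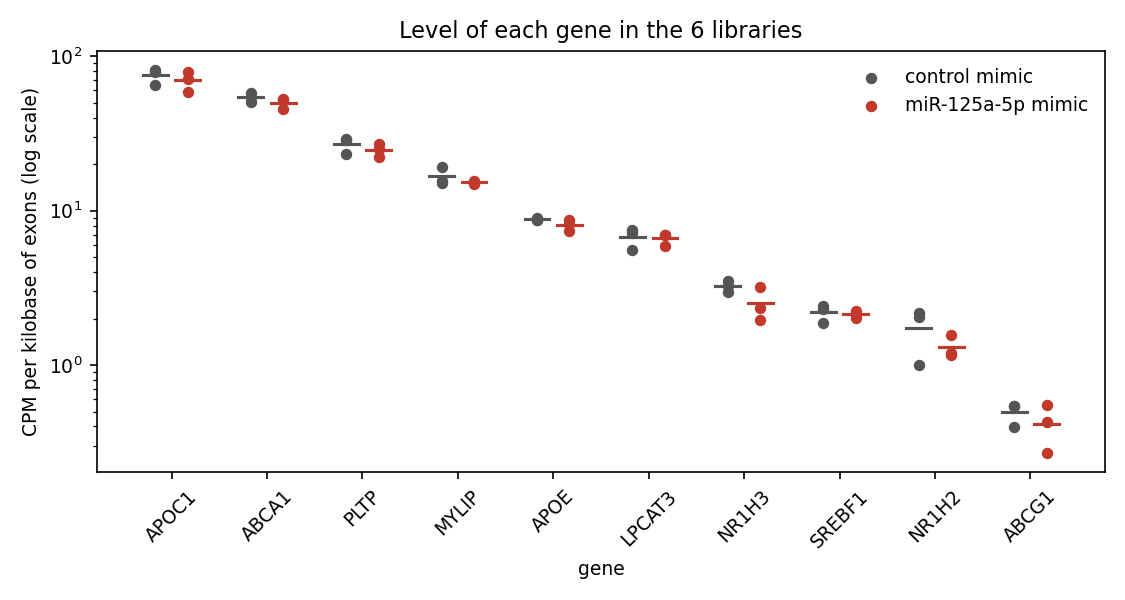
Level of each of the 10 genes in CPM per kilobase of annotated exons (log axis), 1 point per library, grey for control mimic and red for miR-125a-5p mimic, with a bar at the mean of 3 libraries. Levels run from APOC1 (75.5 in control) to ABCG1 (0.495 in control), and the 2 groups overlap for every gene.

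The receptors come first. NR1H3 encodes LXR-alpha, the form enriched in macrophages, liver, gut and fat. It had 14.8, 13.5 and 15.9 CPM in control libraries 1, 2 and 3, and 8.93, 14.6 and 10.7 CPM in miR-125a-5p libraries 1, 2 and 3. Libraries 1 and 3 of the miR-125a-5p group lay below every control, and library 2 lay inside the control range. NR1H3 had a log2 fold change of -0.37 (SE 0.21, 95% interval -0.80 to 0.06), with an unadjusted p of 0.0856 by edgeR's quasi-likelihood test. Without miR-125a-5p library 2 it was -0.59 (edgeR adjusted p = 0.992), and without miR-125a-5p library 1 it was -0.22 (edgeR adjusted p = 0.963). The counts behind it were 76 to 151 per library.

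NR1H2 encodes LXR-beta, the form found in most tissues. It had 7.65, 8.17 and 3.76 CPM in control libraries and 4.35, 4.46 and 5.87 CPM in miR-125a-5p libraries, from 34 to 78 counts each. Control library 3 was the lowest of all 6, below every miR-125a-5p library, while the other two controls were the highest. NR1H2 had a log2 fold change of -0.42 (SE 0.31, 95% interval -1.06 to 0.22). It was -0.69 without control library 3 (edgeR adjusted p = 0.666) and -0.23 without control library 2 (edgeR adjusted p = 0.996), so the size of this difference rested on single control libraries.

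Of the efflux transporters, ABCA1 was counted 4311 to 5821 times per library. Its level was 571, 654 and 618 CPM in control libraries and 592, 597 and 516 CPM in miR-125a-5p libraries. The 2 groups overlapped, with control library 2 the highest and miR-125a-5p library 3 the lowest. Its log2 fold change was -0.11 (SE 0.09, 95% interval -0.30 to 0.07), which in percent runs from -18.6% to 5.15%. With 1 library left out it ranged from -0.16 to -0.05, the smallest being without miR-125a-5p library 3. ABCG1 had only 14 to 34 counts per library, at 3.34, 3.32 and 2.43 CPM in control and 1.64, 2.61 and 3.35 CPM in miR-125a-5p libraries. Its highest library was miR-125a-5p library 3 and its lowest miR-125a-5p library 1. The log2 fold change of ABCG1 was -0.26 (SE 0.41, 95% interval -1.10 to 0.59). The fold change ranged from -0.51 to -0.03 when 1 library was left out.

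The promoter of ABCA1 was the 1 among those of 9 genes with an entry that held a close match to the LXR response element, a direct repeat of AGGTCA spaced by 4 bases (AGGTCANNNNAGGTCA). ABCG1 had no entry, so its promoter was not searched. The window ran from 250 bases before to 50 after each annotated start, and both strands were searched. Some genes had several windows. Up to 2 mismatches in the 12 fixed letters were allowed, which 2.341% of all 35116 windows met. The match read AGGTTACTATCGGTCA on the strand opposite to the gene, from 69 to 54 bases before the start, and had 2 mismatches. It is shown in capitals on the gene's strand, at chr9:104928202-104928231 (minus strand, GRCh38.p14, RefSeq).
ABCA1 promoter: caggcttTGACCGATAGTAACCTctgcgct
The files hold no measurement of receptor binding, so this is a description of the sequence only.

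The lipoprotein genes on the list are secreted carriers and remodelers of lipid. APOE, the macrophage-made ligand of the LDL receptor family, had 19.6, 18.9 and 19.1 CPM in control libraries and 18, 16.1 and 19 CPM in miR-125a-5p libraries. Its controls were the tightest of the 10 genes, and miR-125a-5p library 3 lay just inside their range. APOE had a log2 fold change of -0.12 (SE 0.17, 95% interval -0.46 to 0.22), and -0.18 to -0.06 with 1 library left out.

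APOC1 had 97.8, 100 and 80.6 CPM in control and 88.1, 96.7 and 72.3 CPM in miR-125a-5p libraries. The libraries numbered 3 were the lowest in both groups, and the groups overlapped. APOC1 had a log2 fold change of -0.12 (SE 0.12, 95% interval -0.36 to 0.13). It was -0.01 without miR-125a-5p library 3 and -0.21 without control library 3. A near copy, the pseudogene APOC1P1, had 42 counts in all 6 libraries together, and how reads matching both were counted is not given in the sources used here. PLTP had 74.3, 73.3 and 58.9 CPM in control and 56.6, 63.8 and 68.3 CPM in miR-125a-5p libraries. Control library 3 lay among the miR-125a-5p libraries. The log2 fold change of PLTP was -0.13 (SE 0.12, 95% interval -0.37 to 0.11), and -0.23 to -0.06 with 1 library left out. This is the gene with the coding 8-base match, and its difference did not pass.

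APOE and APOC1 lie next to APOC4 and APOC2 on chromosome 19, a cluster known to answer to LXR in macrophages. APOC2, the cofactor of lipoprotein lipase, was at 402, 405 and 386 CPM in control and 342, 422 and 371 CPM in miR-125a-5p libraries, or 302 CPM per kilobase in control libraries, above its neighbours. APOC4 had 17 counts in all. Expression along the cluster was thus uneven, with APOC2 highest per kilobase, then APOC1, then APOE. The row of the readthrough gene APOC4-APOC2 equalled the sum of the APOC4 and APOC2 rows in 6 of 6 libraries, so reads over this pair entered more than 1 row of the table.

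Reads that lie over 2 genes can therefore stand in the counts of some of the 10. Over GENCODE 29 exons on either strand, LPCAT3 shared 3100 bases (65.6% of its exons) with EMG1, PLTP shared 200 bases with CTSA, SREBF1 556 bases with RAI1 and NR1H3 189 bases with ACP2. CTSA, the abundant lysosomal protein cathepsin A, had 16960 counts over the 6 libraries against 3548 for PLTP. EMG1 had 965 against 1696 for LPCAT3. Whether the kit kept strand is not given in the sources used here, and the part of shared reads in these values was not tested.

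The last 3 genes control uptake, membrane phospholipids and lipogenesis. MYLIP had 47.2, 45.7 and 58.1 CPM in control and 47.3, 45.3 and 46.6 CPM in miR-125a-5p libraries. Only control library 3 stood apart, above the other 5. MYLIP had a log2 fold change of -0.12 (SE 0.12, 95% interval -0.37 to 0.14). It ranged from -0.18 to -0.00 with 1 library left out, the smallest being without control library 3, so the size of the difference rested on that library.

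LPCAT3, the enzyme that puts polyunsaturated chains into phospholipids, had 35.3, 33.6 and 26.2 CPM in control and 28.1, 32.7 and 32.9 CPM in miR-125a-5p libraries. Its lowest library was a control and its highest too. The log2 fold change of -0.02 (SE 0.15, 95% interval -0.32 to 0.28) changed sign with single libraries left out, from -0.14 to 0.06. SREBF1, which encodes the lipogenic transcription factor SREBP-1, had 19.4, 18.6 and 14.9 CPM in control and 17, 17.9 and 16.3 CPM in miR-125a-5p libraries. All 3 miR-125a-5p libraries fell inside the control range. The log2 fold change of SREBF1 was -0.05 (SE 0.17, 95% interval -0.41 to 0.31), and it was 0.03 without control library 1.

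**Figure D2:**
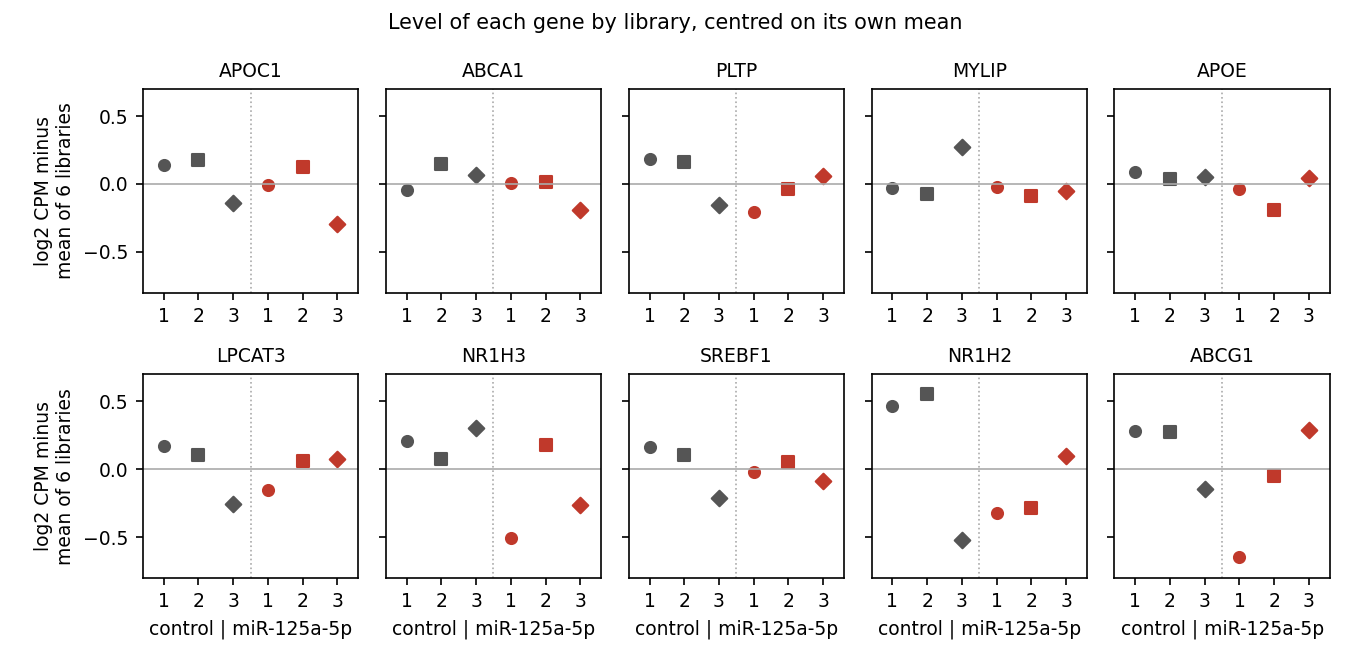
Log2 CPM of each gene minus its own mean over the 6 libraries, with circles, squares and diamonds for libraries 1, 2 and 3 of the control mimic (grey, left) and miR-125a-5p mimic (red, right). NR1H2 ranges widest among controls, from -0.518 in library 3 to 0.558 in library 2, and APOE and ABCA1 vary least there.

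Read side by side, all 10 fold changes were negative, with a median log2 fold change of -0.119, where 49.8% of all tested genes had a negative one and the median of all was 0.001. These 10 values share the same 6 libraries, both control and miR-125a-5p, so they are not 10 separate observations. With 1 library left out the number of negative values was 8 to 10 and the median -0.181 to -0.108. In none of the 10 did the groups separate fully, while they did in 11.2% of all tested genes, 5.9% lower and 5.31% higher. Control library 3 was the lowest control for 6 of the 10 (ABCG1, APOC1, LPCAT3, NR1H2, PLTP and SREBF1), and it was so for 32.5% of all tested genes. In the miR-125a-5p group library 1 was the lowest for 5 of the 10, against 32.7% of all tested genes.

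**Figure D3:**
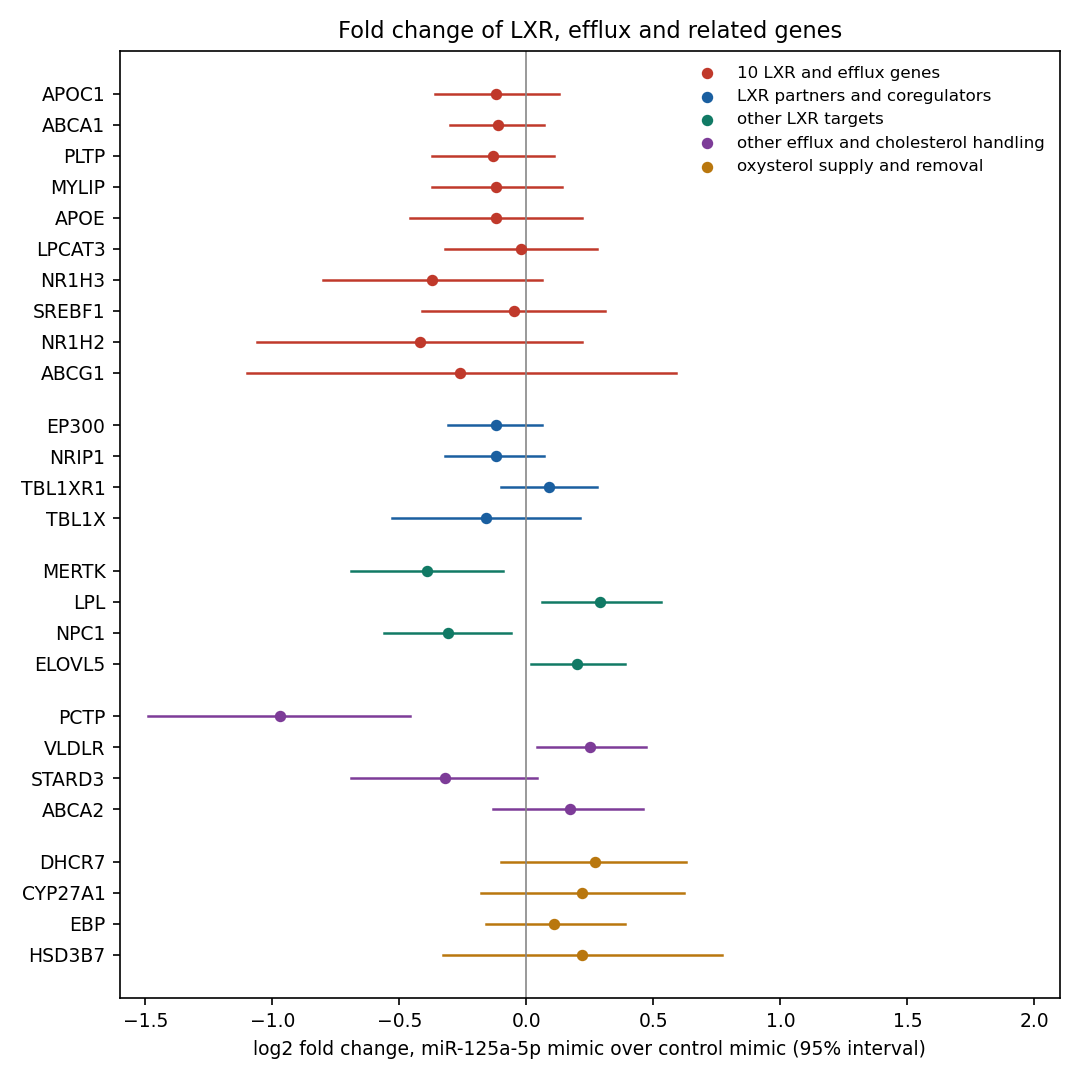
Log2 fold change of miR-125a-5p over control mimic with its 95% interval, for the 10 LXR and efflux genes in order of level and, below, the 4 genes with the smallest p of each related list. The intervals of the 10 all include 0, and the widest is that of ABCG1 (-1.10 to 0.59).

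Libraries held 8256149 to 10257791 counts. On the leading principal component of log2 CPM, with 25% of the variance, control library 1 lay at -38.2 and all others at 1.14 to 16.3. Among the 10 genes it was the highest control for 5 and the lowest for 1, where it was so for 37.3% and 36.8% of all tested genes, and without it 8 of the 10 fold changes were negative. All 10 monocytic markers were above 1 CPM, including PTPRC and SPI1, and their summed level was 2480 to 2490 CPM in control and 2410 to 2450 CPM in miR-125a-5p libraries. Macrophage markers summed to 2520 to 3100 and 2220 to 2920 CPM, with MRC1, C1QA and C1QB under 1 CPM. T cell, erythroid and epithelial lists had 0 markers at 1 CPM or more, but TRAC of the T cell list was not found among the counted genes. Of the hepatocyte markers only SERPINA1 and of the fibroblast markers only COL1A1 reached it. The B cell list summed to 53.1 to 86.4 CPM in control and 44.7 to 62.2 CPM in miR-125a-5p libraries, mostly from PAX5, with CD79A and MS4A1 under 1 CPM.

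Related genes were read from 4 lists of 71 genes, of which 59 were tested, and 0 of the 59 passed by edgeR's quasi-likelihood test. Among partners and coregulators of LXR, of the 19 tested 10 had a positive and 9 a negative fold change, with a median of 0.011 and 0 at an unadjusted p under 0.05. RXRA and RXRB, the partners of LXR on DNA, were both tested, and RXRG was too low to test. The smallest p were those of EP300, a histone acetyltransferase (492 ± 37.3 and 451 ± 18.9 CPM, log2 fold change -0.12), NRIP1, a corepressor of nuclear receptors (-0.12), and TBL1XR1 and TBL1X, parts of the NCoR corepressor complex (0.09 and -0.16).

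Other LXR targets went both ways. Of 20 tested, 12 had a positive and 8 a negative fold change, with a median of 0.027, and 2 were higher and 3 lower at an unadjusted p below 0.05, against 2.69% and 3.22% of all tested genes. MERTK, a receptor for the uptake of dying cells, had 29.7, 28.5 and 35.3 CPM in control and 23.5, 25.5 and 22.4 CPM in miR-125a-5p libraries, lower in each. Its log2 fold change was -0.39 (edgeR adjusted p = 0.670, 0.553 to 0.992 over the alternatives). LPL, lipoprotein lipase, was at 148 ± 13.7 and 182 ± 32.9 CPM (0.29), NPC1, which exports cholesterol from lysosomes, at 72.3 ± 10.1 and 58.3 ± 7.05 CPM (-0.31), and ELOVL5, a fatty acid elongase, at 152 ± 4.78 and 175 ± 1.33 CPM (0.20). None of these passed. The third lower gene, CETP, the cholesteryl ester transfer protein, was named after its values were seen, with a log2 fold change of -0.76 from 2.16 to 5.8 CPM per library.

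Of the 10 genes listed for oxysterol supply and removal, 6 were tested. The other 4, CH25H, CYP46A1, CYP3A4 and SULT2B1, were too low to test. The 6 fold changes were all above 0, where 49.8% of all tested genes had a negative one. Their median on the log2 scale was 0.168, and 0 of the 6 genes lay at an unadjusted p under 0.05. CYP7B1 and OSBP, named after their values were seen, each had a log2 fold change of only 0.03. DHCR7, which makes cholesterol from its last precursor, was at 26.1 ± 1.0 and 31.4 ± 10.5 CPM (log2 fold change 0.27), and without miR-125a-5p library 3 its fold change was -0.04. CYP27A1, which makes 27-hydroxycholesterol, had 14.7 ± 3.31 and 17.1 ± 1.89 CPM (0.22), EBP, a sterol isomerase, 34.3 ± 4.37 and 37.1 ± 1.28 CPM (0.11), and HSD3B7, an enzyme of bile acid synthesis that acts on oxysterols, 6.36 ± 1.59 and 7.42 ± 1.21 CPM (0.22). With 1 library left out these 3 fold changes ranged from 0.06 to 0.38, from 0.01 to 0.17 and from 0.08 to 0.44.

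Among other genes of efflux and cholesterol handling, 5 of 14 tested had a positive and 9 a negative fold change, with a median of -0.068, and 1 was higher (VLDLR) and 1 lower (PCTP) at an unadjusted p below 0.05. PCTP, a cytosolic carrier of phosphatidylcholine, had the smallest p of all 59. It stood at 21.6, 17.8 and 16.6 CPM in control and 8.34, 5.54 and 14.7 CPM in miR-125a-5p libraries. Each miR-125a-5p library was below each control, and library 3 was closest to them. The log2 fold change was -0.97 (SE 0.25), with an edgeR adjusted p of 0.369. PCTP was called without miR-125a-5p library 3 (-1.43, edgeR adjusted p = 0.0208) and with no count filter (edgeR adjusted p = 0.00235), and over all alternatives its adjusted p ran from 0.00235 to 0.992. Its longest 3′ UTR held the 8-base match shown above, at chr17:55777200-55777207 (plus strand, exon 6 of 6), which was in 3 of 5 annotated 3′ UTRs. An 8-base match was in 6.0% of searched genes. Among the 59 tested genes of the lists it was also in SCARB1, an HDL receptor (log2 fold change -0.10), and CD5L, a secreted macrophage protein (-0.60), both named after their values were seen, and neither passed. Matches of 7 bases were in 10 more of the 59, 4 with a negative and 6 with a positive fold change, among them NRIP1 (-0.12) and DHCR7 (0.27). Over all searched genes the best match was a 7-base match to the seed in 10.4% and a 7-base match ending in the A in 7.97%. VLDLR, a lipoprotein receptor that MYLIP also targets, had 82.6 ± 7.27 and 98.5 ± 7.44 CPM (0.25), STARD3, a late endosomal sterol carrier, 18.4 ± 2.21 and 14.7 ± 0.617 CPM (-0.32), and ABCA2, an endolysosomal transporter, a log2 fold change of 0.17. None of these 3 passed.

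**Figure D4:**
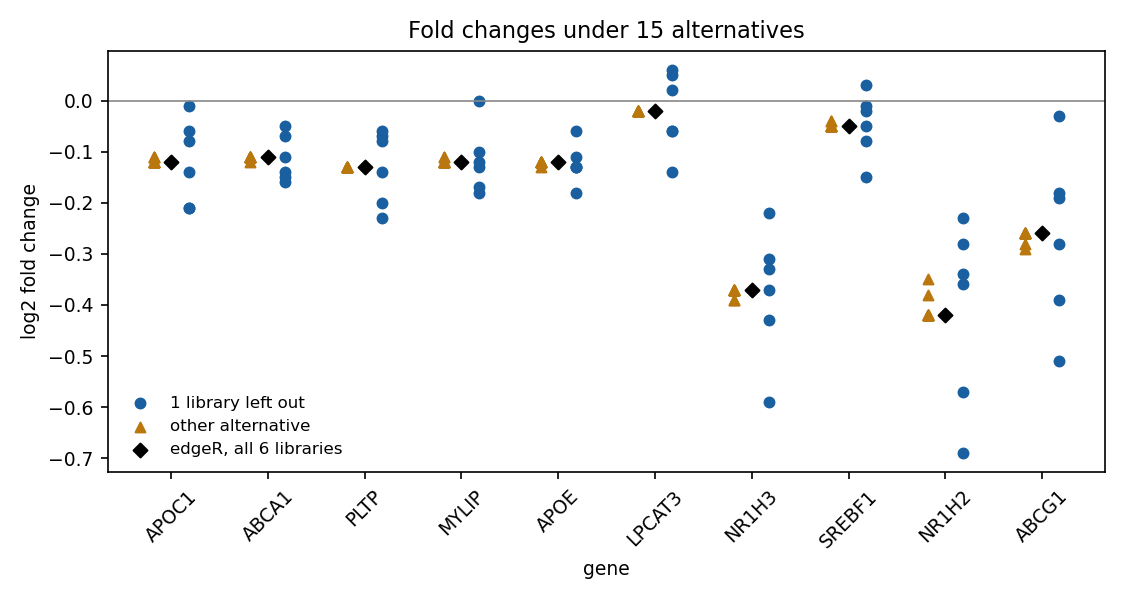
Log2 fold change of each of the 10 genes with all 6 libraries (black diamonds), with 1 library left out (blue circles) and under the other alternatives (orange triangles). Leaving out a library moved NR1H3 between -0.59 and -0.22 and NR1H2 between -0.69 and -0.23, and the other alternatives stayed within -0.42 and -0.35 for NR1H2.

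By the root mean square difference of centred log2 CPM over the 6 libraries, the genes most like NR1H3 among 11596 with at least 5 CPM were SYNPO (0.071), CTNNAL1 (0.081) and ALOX12 (0.1), where the median of all was 0.33. The nearest of the other 9 LXR and efflux genes was ABCA1, at 0.266, and the farthest was NR1H2, at 0.477. A gene that varies little can also score low on this measure. Around their own means ABCA1 ran from -0.192 to 0.148 and NR1H3 from -0.51 to 0.307, so the value for ABCA1 does not show a shared pattern. With 6 libraries and so many genes, small differences of this kind are common, and they are given as a description.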

How the data were processed

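RNA of 6 THP-1 libraries was measured, 3 per group, grouped by their titles. The authors deposited raw counts, whole numbers with no scaling, in 1 table keyed by NCBI gene identifier, with 0 columns of no library. Build hg19 and the tools bcl2fastq, TopHat and edgeR are named, with no versions, per the submitters' processing notes. For the counting step, its annotation and strand setting, nothing was given in the sources used here. Names came from RefSeq (GRCh38.p14) for 99.4572% of identifiers. No source says that libraries came from separate cultures, so p-values rest on the spread among the 6, which may be of technical origin.

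The test was edgeR 4.0.16 under R 4.3.3 (filterByExpr, TMM, glmQLFit, glmQLFTest, no covariate, Benjamini-Hochberg, threshold 0.05). Of 21274 genes with any count, 14731 were tested. The SE is the log2 fold change over the square root of F, and 95% intervals use its t quantile. No pair of libraries agreed within sampling noise. The steps were tested on simulated data, with larger fold changes put in than those of the 10 genes. That test does not cover differences as small as theirs. Alternatives were other scalings and filters, DESeq2 1.42.0, limma 3.58.1 voom, the likelihood ratio test, legacy = FALSE, the replicate number as a block and each library left out. Sites were searched in GENCODE 29 transcripts with a 3′ UTR of at least 20 bases. For each gene the longest and the shortest 3′ UTR were searched. Coding sequence was searched only in the transcript with the longest 3′ UTR. Besides the 10 genes, the text names the 4 genes with the smallest p of each related list. The genes and lists were chosen with earlier results of these data known. One gene of a related list is not reported here and was left out of that list.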

Additional observations from a re-analysis of the deposited data

How the results depend on the processing

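None of the 10 genes was called in any of 15 alternative fits, and of their 150 fold changes there 146 kept their direction. The 4 that did not were 3 of LPCAT3 and 1 of SREBF1, all with 1 library left out, where LPCAT3 ranged from -0.14 to 0.06, SREBF1 from -0.15 to 0.03, and DHCR7 of the related lists from -0.04 to 0.43. At an unadjusted p under 0.05 there were 0 to 1 of the 10 with 1 library left out: NR1H2 without control library 3 and NR1H3 without miR-125a-5p library 2. Of the related lists 0 to 1 genes were called with 1 library left out, and 1 with no count filter, PCTP both times.

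Over all tested genes the number called, 0 higher and 4 lower, depended on the fit. It was 52 with no count filter (11 higher, 41 lower), 13 by DESeq2 (2 higher, 11 lower) and 21 by the likelihood ratio test (4 higher, 17 lower). With 1 library left out it was 3 to 14 (0 to 2 higher, 3 to 14 lower), the most without control library 3. The cause was not tested. With the replicate block 9 genes were called, all lower, and 0 of the 10. Same-numbered libraries had correlations of -0.0156 to 0.0558 in their deviations from the group means. Of the 6 libraries, 2 correlated best with their own number. These values cannot tell whether same-numbered libraries were handled together, and the sources used here do not say.

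In coding sequence 3 of the 10 genes held a match of 7 or 8 bases, against 22.7% of searched genes, an alternative chosen after seeing the data, and 0 did in the shortest 3′ UTR. With 1 or 0 mismatches allowed, 0 promoters of the 9 genes with an entry held the response element. Over all windows 0.205% held it with up to 1 mismatch and 0.01993% with 0. Levels per kilobase were higher with the longest transcript as length, up to 135 for APOC1. ABCG1 and NR1H2 had the fewest counts, 14 to 34 and 34 to 78 per library.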
